A study of Mus musculus with 12 samples.

Results

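Genes of the tumor necrosis factor (TNF) superfamily were followed in the dorsal meninges of young and aged mice 1.5 months after a mild traumatic brain injury (TBI) or a Sham procedure. Rows of the count table were taken by name: symbols that begin with Tnfsf or Tnfrsf and a number, apart from 2 receptor genes that the rule left out, plus Tnf, Lta and Ltb. This gave 33 of the 55385 rows, namely 14 ligands, 15 receptors, 3 decoy receptors and 1 antisense RNA, Tnfsf13os. After the filter on low counts 27 of the 33 were tested, and Lta, Tnfsf4, Tnfsf9, Tnfsf15, Tnfsf18 and Tnfrsf8 were set aside.

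All mice were male C57BL/6 by the labels (the young ones C57BL/6J by the study's methods), and bulk RNA sequencing was done on 12 libraries in 4 groups of 3: Aged TBI, Aged Sham, Young TBI and Young Sham. Young mice were 10 weeks of age, and for aged mice the labels give 20 months in one field and 20 to 24 months in another. In the paper 10 weeks and 20 months are the ages at the procedure, with RNA sequencing 1.5 months later. The injury was a single closed-skull impact over the right inferior temporal lobe, and Sham mice had the same handling without the impact. Each library was made from pooled mice, the tissue collected for RNA left out the spot directly under the impact, and young and aged mice came from different suppliers, so age and supplier cannot be told apart. Total counts ran between 8092370 and 16087700 per library. Of the 13 T cell, 8 fibroblast, 6 arachnoid and 8 blood endothelium marker genes looked up to check the tissue, every one was tested, and Col1a1 averaged 2825 CPM (counts scaled to library size) in Aged TBI, 2773 in Aged Sham, 6367 in Young TBI and 6296 in Young Sham libraries. The library Aged Sham 3 stood apart: its summed level of 7 osteoclast markers was 1609 CPM against 236 to 436 CPM in the other 11 libraries, with all 7 at their highest there. Of 9 bone and osteoblast markers, Spp1 (2556 CPM, against 378 CPM at most elsewhere), Ibsp (973 CPM, against 86.3 CPM at most) and Dmp1 were highest in Aged Sham 3, but Bglap, Bglap2, Sp7, Phex and Alpl were at their lowest of the 12 libraries there. The pituitary gene Gh reached 1033 CPM in Aged Sham 3 and 9.34 CPM at most elsewhere, while 4 of the other 5 pituitary markers were not highest there and Prl was at 0.324 CPM. Skeletal muscle markers summed to 1211 CPM in Aged TBI 2 and 304 CPM in Young TBI 3, against 7.15 to 30.3 CPM elsewhere. The 3 choroid plexus markers summed to 711 to 1955 CPM in Aged TBI and 1934 to 4235 CPM in the other libraries. All 3 were called lower in Aged TBI than Young TBI, and 2 of them, Folr1 and Kl, also lower in Aged TBI than Aged Sham. The part of muscle and choroid plexus in the results was not tested.

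TNF superfamily ligands are trimeric proteins, mostly anchored in the membrane of immune and stromal cells, and each binds 1 or more receptors of the family. Some receptors carry a death domain and can start apoptosis, others recruit TRAF adaptors and switch on the canonical or the alternative NF-kappaB pathway, and decoy receptors bind a ligand without passing on the signal. Together they shape lymphoid tissue, keep B cells and T cells alive and control the formation of bone-resorbing osteoclasts. Beside the brain, the meninges hold such resident lymphocytes and myeloid cells, lie against skull bone, and are rich in fibroblasts.

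Promoter windows are shown for the called members in which a motif was found, since these are the genes whose levels differed with age. Of the 33 members, 25 had a window in the RefSeq promoter table (build GRCm38.p6, 250 bases before to 50 after each start, 29 windows because some genes have several starts). Letters in capitals mark the match, on either strand, to an NF-kappaB core (GGGANNNNCC, read GGNNNNTCCC on the other strand) in Ltb and Tnfrsf25, or to an interferon response element (GAAANNGAAA, read TTTCNNTTTC on the other strand) in the second Tnfsf13b window. The windows are chr17:35194257-35194556 (plus strand) for Ltb, chr4:152115684-152115983 (plus strand) for Tnfrsf25 and chr8:10006383-10006682 (plus strand) for Tnfsf13b.
Ltb: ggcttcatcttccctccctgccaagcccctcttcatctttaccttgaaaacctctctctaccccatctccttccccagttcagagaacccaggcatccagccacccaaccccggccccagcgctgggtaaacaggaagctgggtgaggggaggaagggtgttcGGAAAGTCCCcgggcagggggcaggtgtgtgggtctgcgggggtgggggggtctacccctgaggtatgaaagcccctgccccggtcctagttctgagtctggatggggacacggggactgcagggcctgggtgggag
Tnfrsf25: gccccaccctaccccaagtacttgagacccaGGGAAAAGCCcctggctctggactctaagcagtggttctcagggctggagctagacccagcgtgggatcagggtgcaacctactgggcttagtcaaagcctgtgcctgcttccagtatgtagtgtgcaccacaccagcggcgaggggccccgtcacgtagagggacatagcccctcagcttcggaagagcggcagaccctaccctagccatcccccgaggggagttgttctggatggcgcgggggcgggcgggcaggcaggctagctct
Tnfsf13b: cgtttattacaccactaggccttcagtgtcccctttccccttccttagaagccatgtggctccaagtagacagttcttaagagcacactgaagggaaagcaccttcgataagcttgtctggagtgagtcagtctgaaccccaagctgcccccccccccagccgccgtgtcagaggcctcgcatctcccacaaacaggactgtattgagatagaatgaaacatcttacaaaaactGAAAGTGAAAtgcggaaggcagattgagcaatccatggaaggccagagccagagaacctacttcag
An NF-kappaB core was present in 8 of the 29 member windows and in 20.7% of all 32851 windows of the table. The interferon element was present in 3 of the 29, those of Tnfrsf14, Tnfrsf1b and Tnfsf13b, and in 3.44% of all windows. The single windows of Tnfsf10, Tnfsf8 and Tnfrsf11a and both of Tnfrsf19 held neither string of letters, and Tnfrsf10b and Tnfrsf11b had no entry. A match is a description of the letters and was not tested as a binding site.

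Levels were compared between members as CPM per kilobase of exon, the mean over the 4 groups. Tnfrsf1a, which codes for TNF receptor 1, had the highest level at 65.9, followed by Tnfrsf19 at 38.6 and Tnfrsf1b, TNF receptor 2, at 16.6. Tnfrsf19, or TROY, is a receptor of stromal and neural progenitor cells that recruits TRAF adaptors. The ligands with the highest levels were Tnfsf10 (TRAIL, which binds death receptors) at 10.4 and Tnfsf12 (TWEAK) at 10.1, close to Tnfrsf14 (HVEM, the receptor of Tnfsf14) at 9.49, the TWEAK receptor Tnfrsf12a at 9.08 and the decoy receptor Tnfrsf11b (osteoprotegerin) at 8.56. The library ranges of these 5 genes overlapped, so their order is not resolved. Tnf itself was in 22nd place at 1.21, and the 6 members set aside had levels of 0.485 or less. Over the 12 libraries Tnfrsf1a ran from 55.8 to 79.8, meeting Tnfrsf19 (23.01 to 56.0) only at its end, and Tnfrsf19 lay wholly above Tnfrsf1b (14.8 to 21.6).

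**Figure D1:**
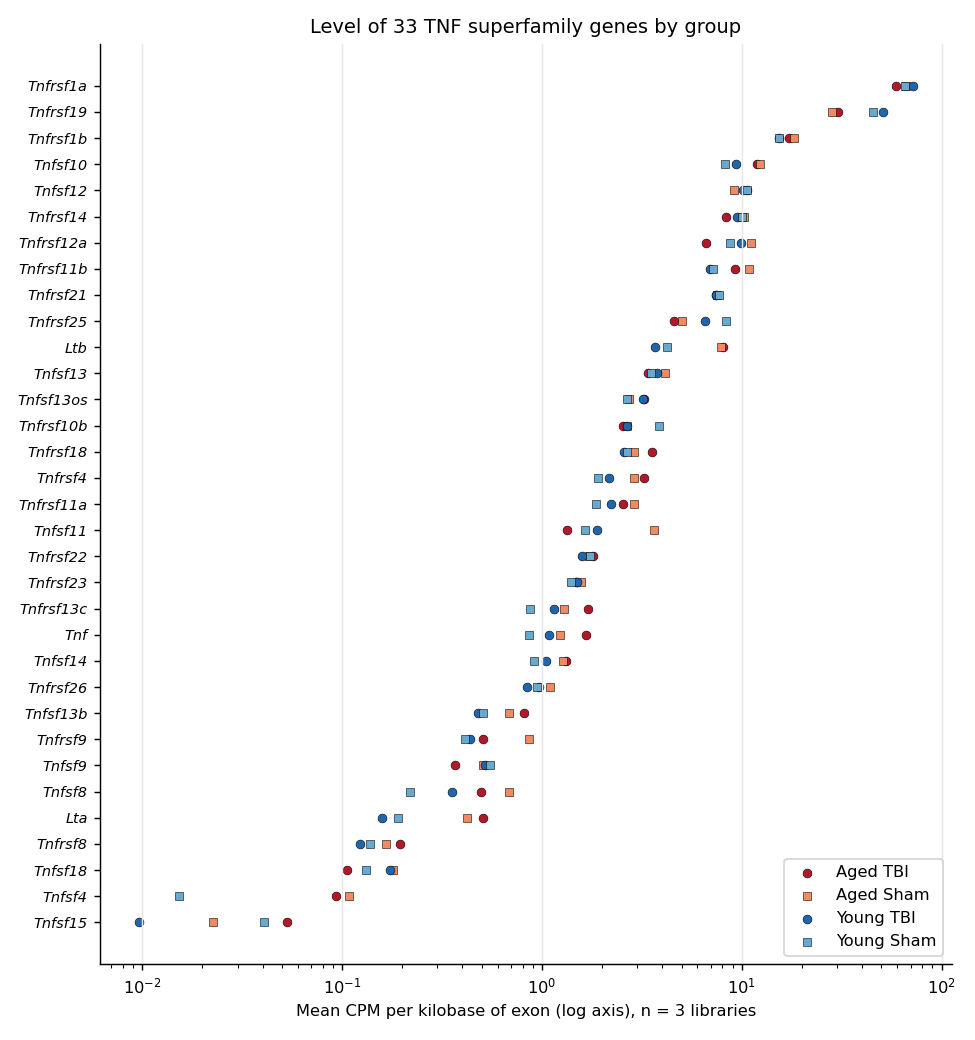
Mean level of each of the 33 genes in CPM per kilobase of exon (horizontal log axis) in the 4 groups (3 libraries each), ordered by the mean over groups. Tnfrsf1a, Tnfrsf19 and Tnfrsf1b lie at the top; Tnfsf4 has no point for Young TBI, where its count was 0.

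Reads of a few members cannot be assigned with certainty. In the annotation 48.3% of the exon bases of Tnfsf12 and 60.0% of those of Tnfsf13 are shared with the read-through gene Tnfsfm13 on the same strand, and Tnfsf13 shares 221 exon bases with Tnfsf13os on the other strand. Likewise 27.2% of Tnfrsf18 overlaps the antisense gene Gm16008. The strand setting of the counting is not given in the sources used here, and the neighbouring paralogs Tnfrsf22, Tnfrsf23 and Tnfrsf26 on chromosome 7 may also share reads, so the values of these members are uncertain.

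The first question was which members differ between aged and young meninges when no injury was given. Among Sham mice, 8 of the 27 tested members were called at an adjusted p below 0.1 (edgeR quasi-likelihood test, Benjamini-Hochberg adjustment over all 18238 genes): the ligands Ltb, Tnfsf8 and Tnfsf10, the receptor Tnfrsf11a and the decoy receptor Tnfrsf11b were higher in Aged Sham, and the receptors Tnfrsf10b, Tnfrsf19 and Tnfrsf25 were lower. The background was 15.6% of all tested genes called, 7.89% higher and 7.71% lower. Among injured mice, 5 of 27 were called, with Ltb, Tnfsf13b and Tnfrsf11b higher in Aged TBI and Tnfrsf19 and Tnfrsf25 lower, where 20.2% of all genes were called, 9.92% higher and 10.3% lower. DESeq2 called the same 8 members among Sham mice, and among injured mice the same 5 and Tnfrsf1a. Without Aged Sham 3 there were 7 calls among Sham mice, which lacked Tnfrsf11a and Tnfrsf19 and included Tnfrsf4, and 9 among injured mice. Without Aged TBI 2, the library with the most muscle markers, there were 4 calls among injured mice, which lacked Tnfrsf11b, and without Young TBI 3 there were 6, which included Tnfsf10. Without Young Sham 3 there were 4 among Sham mice, and without Young TBI 2 there were 2 among injured mice, Ltb and Tnfrsf19. Calls over all genes moved too. Among Sham mice they were 2845 with all libraries, 2571 in DESeq2, 2435 without Aged Sham 3 and 1226 without Young Sham 3. Among injured mice they were 3683 with all libraries, 3274 in DESeq2 and 4495 without Aged Sham 3. They fell to 3117 without Aged TBI 2, 2851 without Young TBI 3 and 2749 without Young TBI 2. With library totals alone as the scale the injured mice gave 7 members higher and 2 lower, where 4452 genes were called. On that scale 66.3% of all called genes were higher among Sham and 71.8% among injured mice. The median log2 fold change of the 27 members was 0.25 for Aged Sham over Young Sham (0.01 over all genes) and 0.18 for Aged TBI over Young TBI (0.02 over all genes). These libraries are pools of whole tissue, in which fewer or more cells of a type and less or more RNA per cell cannot be told apart, and p-values measure the spread between pools.

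The 2 age comparisons share no library. The calls of Ltb, Tnfrsf11b, Tnfrsf19 and Tnfrsf25 were common to both with the same sign, which is 50% of the Sham calls and 80% of the TBI calls; over all genes the shared calls with the same sign were 56.9% of the Sham calls and 43.9% of the TBI calls. Of the 27 members, 18 (66.7%) had the same sign in both, against 70.4% of all genes.

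**Figure D2:**
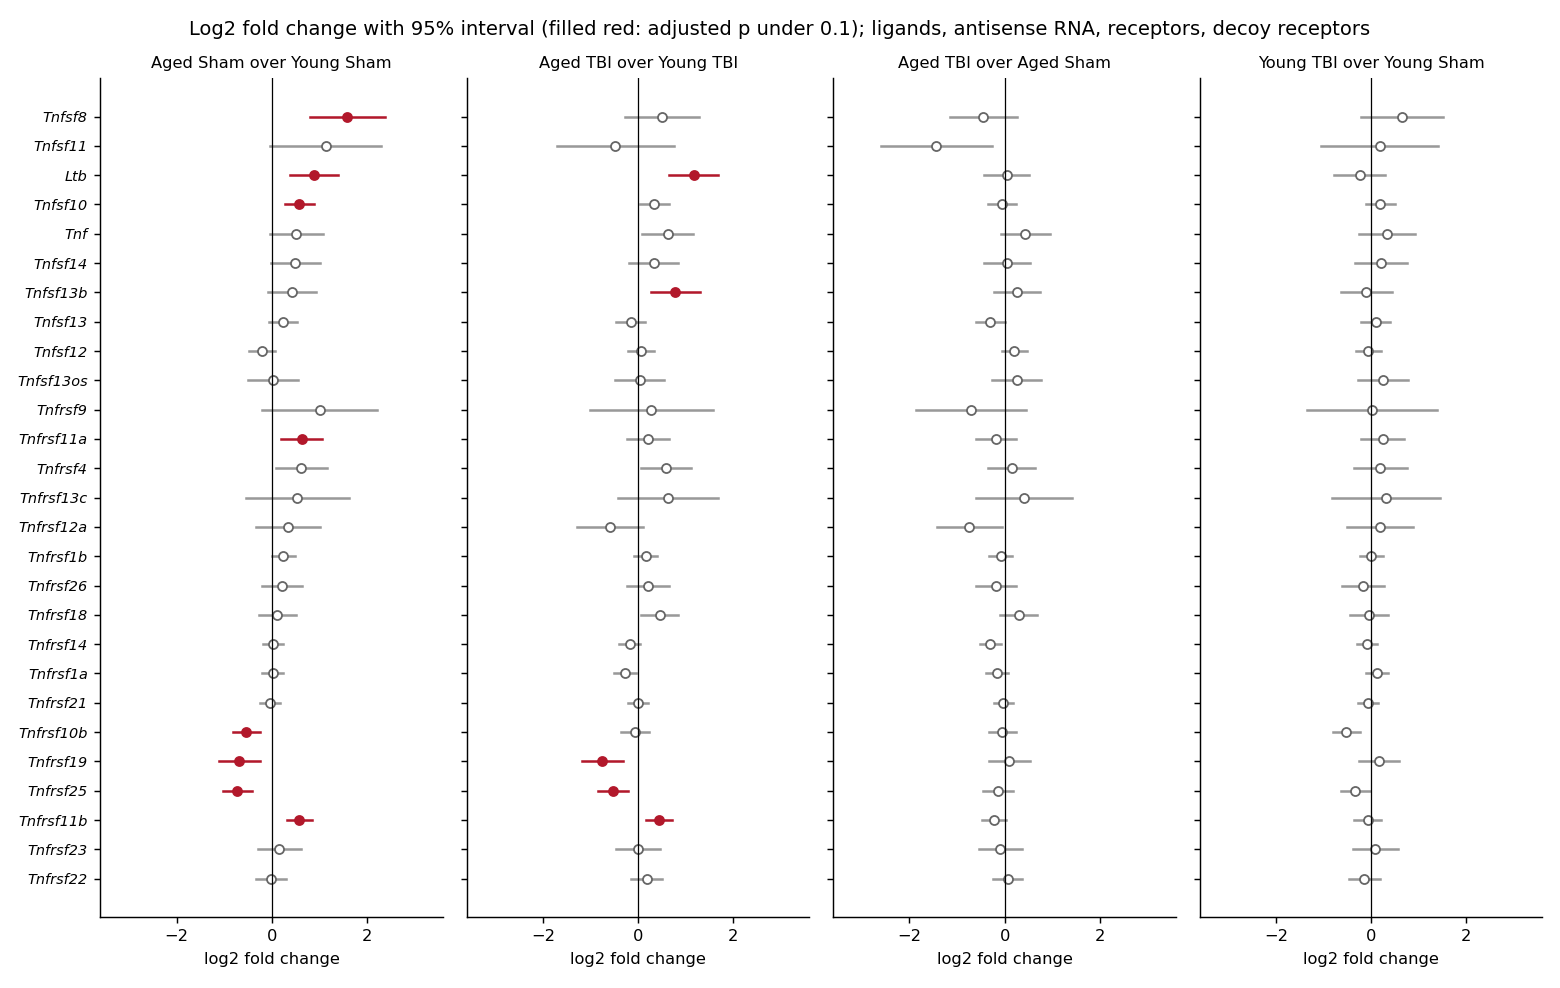
Log2 fold change of the 27 tested members with 95% intervals (horizontal axis) in the 2 age comparisons, Aged over Young, and the 2 injury comparisons, TBI over Sham; filled red points had an adjusted p below 0.1. The red points are 8 among Sham and 5 among TBI mice, and there are none in either injury comparison.

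Ltb codes for lymphotoxin beta, which is held on the surface of lymphocytes in a trimer with lymphotoxin alpha and signals to stromal cells through the lymphotoxin beta receptor. It lies at chromosome 17, 35194439 to 35196320 (plus strand, GRCm38), beside Tnf at 35199381 to 35202007 and Lta at 35203165 to 35205351, both on the minus strand. Ltb was at 15.4, 11.6 and 9.74 CPM in Aged TBI, 11.8, 12.5 and 11.4 CPM in Aged Sham, 4.84, 3.98 and 7.91 CPM in Young TBI and 7.06, 7.13 and 5.13 CPM in Young Sham libraries. All 6 aged libraries were above all 6 young ones. The log2 fold change was 1.17 ± 0.24 (SE) for Aged TBI over Young TBI (adjusted p = 0.00925) and 0.88 ± 0.23 for Aged Sham over Young Sham (adjusted p = 0.0339, but 0.140 without Young Sham 3).

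The other genes of this locus were read less often. Lta, lymphotoxin alpha, was counted 18, 8 and 6 times in Aged TBI, 8, 7 and 8 times in Aged Sham, 3, 3 and 1 times in Young TBI and 3, 5 and 2 times in Young Sham libraries. No young library reached the lowest aged count, although 5 reads against 6 leave the ranges close. It did not pass the filter; in the edgeR fit without that filter its log2 fold change was 1.62 ± 0.55 for Aged TBI over Young TBI (adjusted p = 0.0805) and 1.08 ± 0.53 for Aged Sham over Young Sham (adjusted p = 0.349). Tnf, the founding ligand of the family, was at 3.17, 2.60 and 2.36 CPM in Aged TBI, 1.88, 1.97 and 2.19 CPM in Aged Sham, 2.52, 1.28 and 1.53 CPM in Young TBI and 1.53, 1.43 and 1.26 CPM in Young Sham libraries. The aged and young ranges of Tnf overlapped through the single value of 2.52 CPM in Young TBI 1. Its log2 fold change was 0.62 ± 0.25 for Aged TBI over Young TBI (adjusted p = 0.122, and 0.0402 without Young TBI 1) and 0.52 ± 0.26 for Aged Sham over Young Sham (adjusted p = 0.233).

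Tnf signals through Tnfrsf1a, found on most cells, and Tnfrsf1b, found mainly on immune and endothelial cells. Tnfrsf1a averaged 154 ± 5.8 CPM in Aged TBI, 173 ± 32 in Aged Sham, 186 ± 11 in Young TBI and 171 ± 7.6 in Young Sham libraries (SD, n = 3 each). The 3 Aged TBI libraries (147 to 158 CPM) lay below the 3 Young TBI libraries (179 to 199 CPM), a log2 fold change of -0.27 ± 0.10 that missed the threshold (edgeR adjusted p = 0.105) and was called in 6 of the 18 alternative settings, among them DESeq2 (0.0595) and the fits without Aged Sham 1 (0.0332) or Aged Sham 3 (0.0159). Tnfrsf1b averaged 65.6 ± 8.1 CPM in Aged TBI, 69.7 ± 12 in Aged Sham, 58.9 ± 1.9 in Young TBI and 58.6 ± 2.1 in Young Sham libraries, and was not called in any comparison, although leaving out Aged Sham 1 gave an adjusted p of 0.0425 for Aged Sham over Young Sham.

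Tnfsf10, or TRAIL, can kill cells through death receptors and is known as a gene that interferon induces. Its level was 52.0, 68.1 and 67.4 CPM in Aged TBI, 59.0, 66.8 and 68.5 CPM in Aged Sham, 46.0, 43.7 and 59.0 CPM in Young TBI and 41.6, 49.8 and 38.2 CPM in Young Sham libraries. The Sham groups did not overlap, and the injured groups did, through Aged TBI 1 and Young TBI 3. This gave a log2 fold change of 0.58 ± 0.14 for Aged Sham over Young Sham (adjusted p = 0.0226, but 0.108 without Young Sham 3) and 0.34 ± 0.14 for Aged TBI over Young TBI (adjusted p = 0.125, but 0.0639 without Aged TBI 1 and 0.0597 without Young TBI 3). All 10 genes of an interferon response list were higher in Aged Sham than Young Sham and 9 of the 10 in Aged TBI than Young TBI; their sum was 471 to 730 CPM in Aged TBI, 568 to 642 CPM in Aged Sham, 358 to 446 CPM in Young TBI and 319 to 401 CPM in Young Sham libraries, and their part in the result was not tested.

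The death receptor of TRAIL in mice is Tnfrsf10b, and it did not follow its ligand. Tnfrsf10b was at 16.3, 14.04 and 11.4 CPM in Aged TBI, 15.6, 12.4 and 15.4 CPM in Aged Sham, 14.7, 14.4 and 14.7 CPM in Young TBI and 19.6, 22.7 and 20.5 CPM in Young Sham libraries. The 3 Young Sham libraries were the highest of the 12, and the other 3 groups overlapped. Its log2 fold change was -0.54 ± 0.13 for Aged Sham over Young Sham (adjusted p = 0.0246) and -0.06 ± 0.13 for Aged TBI over Young TBI (adjusted p = 0.796). The comparison of Young TBI with Young Sham uses the same Young Sham libraries, and gave -0.52 ± 0.13 with an unadjusted p of 0.00196 and an adjusted p of 1 in edgeR. The mouse decoy receptors for TRAIL were not called in any comparison: Tnfrsf22 lay between 5.87 and 8.65 CPM and Tnfrsf23 between 4.46 and 8.03 CPM over the 12 libraries.

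Tnfsf13b codes for BAFF, a survival factor for B cells. It was at 6.88, 5.07 and 4.79 CPM in Aged TBI, 4.22, 4.96 and 4.87 CPM in Aged Sham, 4.07, 2.23 and 3.57 CPM in Young TBI and 4.20, 3.53 and 2.78 CPM in Young Sham libraries. Every aged library was above every young one, by as little as 4.22 against 4.20 CPM among Sham mice. Only the injured groups gave a call, at a log2 fold change of 0.78 ± 0.24 (adjusted p = 0.0493, but 0.175 without Aged TBI 1 and 0.171 without Young TBI 2). For Aged Sham over Young Sham it was 0.42 ± 0.23 (adjusted p = 0.291), and the age-by-injury interaction had an adjusted p of 0.828. Tnfrsf13c codes for BAFF-R, a receptor of BAFF and a B cell protein. Tnfrsf13c averaged 3.49 ± 1.7 CPM in Aged TBI, 2.65 ± 0.40 in Aged Sham, 2.36 ± 1.4 in Young TBI and 1.79 ± 0.89 in Young Sham libraries (SD, n = 3 each) and was not called. Of 10 B cell markers, 4 were higher in Aged TBI than Young TBI and 3 in Aged Sham than Young Sham; they summed to 47.3 to 115 CPM in Aged TBI, 64.1 to 78.9 in Aged Sham, 37.5 to 58.8 in Young TBI and 43.3 to 48.1 in Young Sham libraries. Myeloid cells, which make BAFF, were read as well: of 10 neutrophil markers, 6 were higher in Aged TBI than Young TBI and 3 in Aged Sham than Young Sham, and of 5 monocyte markers 3 were higher in Aged TBI than Young TBI and 2 in Aged Sham than Young Sham. Neutrophil markers summed to 531 to 994 CPM in Aged TBI, 382 to 741 in Aged Sham, 157 to 508 in Young TBI and 113 to 467 in Young Sham libraries, and monocyte markers to 272 to 387 CPM in Aged TBI, 243 to 282 in Aged Sham, 219 to 241 in Young TBI and 199 to 216 in Young Sham libraries. Of 8 macrophage markers, 2 were higher in each age comparison. Of 7 dendritic cell markers, 2 were higher among TBI and 1 among Sham mice, and of 6 mast cell markers 4 and 1. Macrophage markers summed to 1535 to 2174 CPM in Aged TBI and 1524 to 1640 in Young TBI libraries, which overlapped. They summed to 1562 to 1866 CPM in Aged Sham and 1431 to 1518 in Young Sham libraries. The part of B cells and myeloid cells in the result was not tested.

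Tnfsf8, the CD30 ligand of activated lymphocytes, had the largest fold change of the called members. It was at 2.25, 1.51 and 1.90 CPM in Aged TBI, 1.88, 2.11 and 3.81 CPM in Aged Sham, 0.872, 1.51 and 1.66 CPM in Young TBI and 0.763, 1.15 and 0.589 CPM in Young Sham libraries. Between 7 and 47 reads stood behind each value. The Sham groups did not overlap, with the highest value in Aged Sham 3. Tnfsf8 had a log2 fold change of 1.59 ± 0.36 for Aged Sham over Young Sham (adjusted p = 0.0189), and 1.22 without Aged Sham 3 (adjusted p = 0.0513). For Aged TBI over Young TBI it was 0.50 ± 0.36 (adjusted p = 0.394). Its receptor Tnfrsf8, CD30, was set aside with 12, 9 and 9 reads in Aged TBI, 7, 9 and 7 in Aged Sham, 3, 6 and 4 in Young TBI and 5, 9 and 4 in Young Sham libraries.

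Tnfrsf25, or DR3, is a death domain receptor best known for costimulating T cells when it binds Tnfsf15 (TL1A). It was at 11.6, 10.4 and 9.36 CPM in Aged TBI, 12.5, 10.2 and 11.8 CPM in Aged Sham, 14.4, 18.0 and 12.4 CPM in Young TBI and 17.6, 18.3 and 21.0 CPM in Young Sham libraries. Within each treatment all aged libraries were below all young ones. The log2 fold change was -0.73 ± 0.14 for Aged Sham over Young Sham (adjusted p = 0.0096) and -0.52 ± 0.14 for Aged TBI over Young TBI (adjusted p = 0.0334, but 0.101 without Aged TBI 3 and 0.126 without Young TBI 2). T cell markers ran the other way: 11 of 13 were higher and 1 lower, Cd4, in Aged Sham than Young Sham, and 12 of 13 were higher in Aged TBI than Young TBI. Their sum was 52.6 to 73.0 CPM in Aged TBI, 52.9 to 70.0 in Aged Sham, 29.4 to 38.8 in Young TBI and 33.1 to 38.3 in Young Sham libraries; the aged libraries were also those with more Ltb, and the part of T cells in either result was not tested. Tnfsf15 was set aside with 8 reads in all in Aged TBI, 3 in Aged Sham, 1 in Young TBI and 5 in Young Sham libraries.

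Tnfrsf19 was the most abundant member to be called. It was at 115, 179 and 135 CPM in Aged TBI, 171, 121 and 109 CPM in Aged Sham, 242, 264 and 216 CPM in Young TBI and 190, 188 and 265 CPM in Young Sham libraries. Aged and young libraries did not overlap, although 179 CPM in Aged TBI 2 came close to 188 CPM in Young Sham 2. For Tnfrsf19 the log2 fold change was -0.75 ± 0.20 for Aged TBI over Young TBI (adjusted p = 0.0269) and -0.68 ± 0.20 for Aged Sham over Young Sham (adjusted p = 0.0487), and the second call was lost without Aged Sham 2, Aged Sham 3 or Young Sham 3 (adjusted p = 0.15, 0.129 and 0.203). Of 8 fibroblast markers, 5 were lower and 1, Mfap5, higher in aged than young mice of either treatment. Col1a1, Col1a2, Col3a1 and Pdgfrb were lower in both, Dcn among Sham and Lum among TBI mice. Pdgfra was not called, at a mean of 149 CPM in Aged TBI, 160 in Aged Sham, 137 in Young TBI and 140 in Young Sham libraries. The sum of the 8 markers was 9593 to 11525 CPM in Aged TBI, 9492 to 10845 in Aged Sham, 18689 to 21340 in Young TBI and 16652 to 21509 in Young Sham libraries. It comes mainly from the collagen genes Col1a1, Col1a2 and Col3a1. Col1a2 alone averaged 4688 CPM in Aged TBI, 4161 in Aged Sham, 7977 in Young TBI and 7614 in Young Sham libraries. The part of fibroblasts or of collagen expression in the result was not tested.

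**Figure D3:**
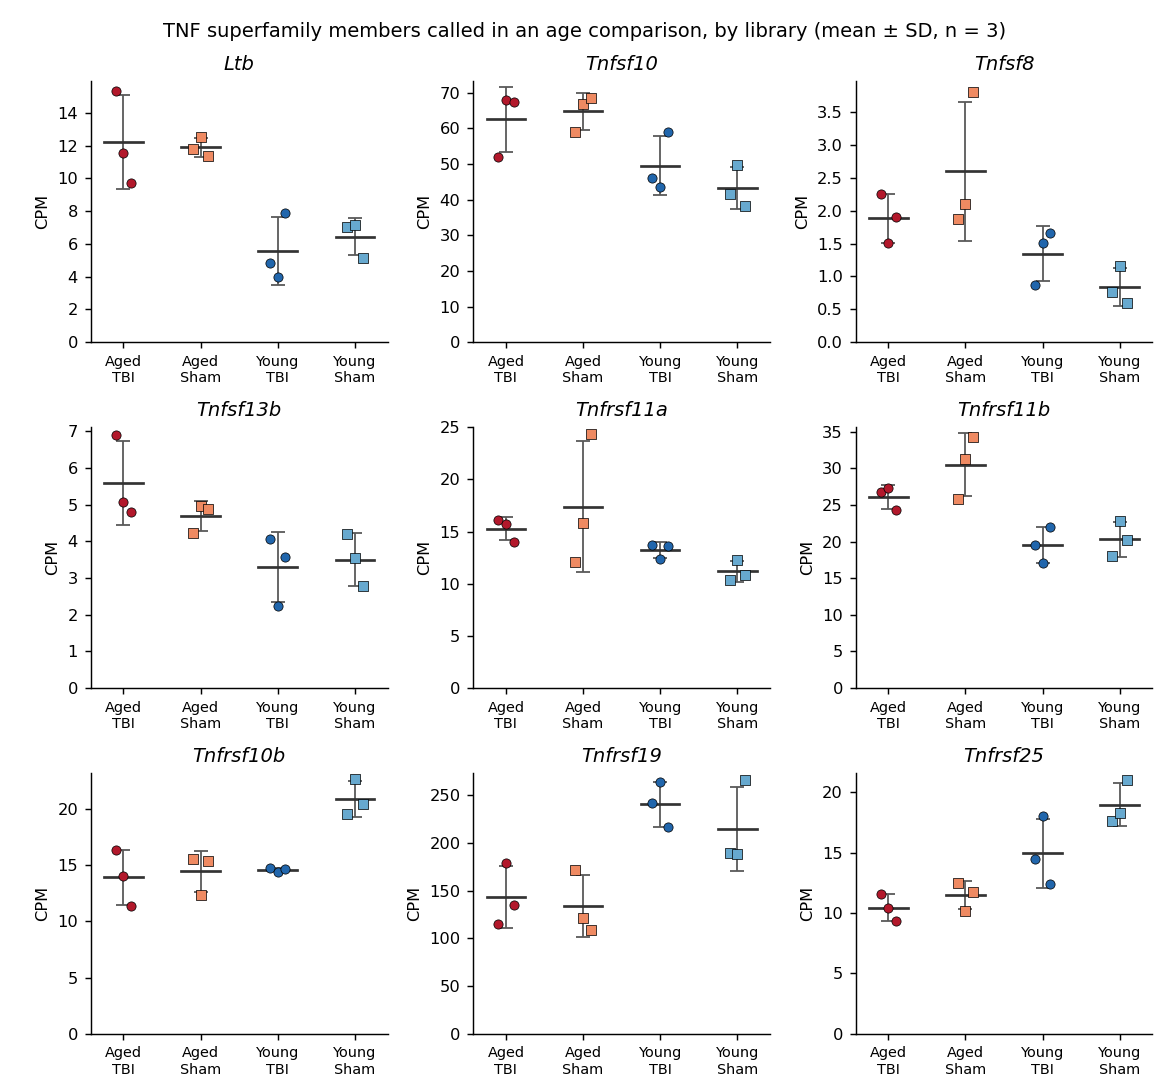
CPM of the 9 members called in an age comparison (vertical axes, from 0) in each library; each point is a library, the line is the mean and the error bar the SD of 3. Ltb, Tnfsf13b and Tnfrsf11b are higher in all 6 aged libraries than in all 6 young ones, and Tnfrsf19 is lower.

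All 3 genes of the RANK axis were highest in Aged Sham 3, the library in which the 7 osteoclast markers and 3 of the 9 bone markers were highest and 5 of the 9 lowest. Tnfsf11, RANK ligand, drives osteoclast formation through its receptor Tnfrsf11a, RANK, and Tnfrsf11b, osteoprotegerin, is a secreted decoy that captures RANK ligand and can also bind TRAIL. Tnfsf11 was at 3.05, 4.04 and 1.83 CPM in Aged TBI, 5.24, 2.52 and 16.7 CPM in Aged Sham, 3.39, 3.91 and 5.36 CPM in Young TBI and 3.62, 3.87 and 3.53 CPM in Young Sham libraries. The value of 16.7 CPM was that of Aged Sham 3, and the other 11 libraries overlapped; the part of bone tissue in it was not tested. Its log2 fold change for Aged Sham over Young Sham was 1.13 ± 0.53 (adjusted p = 0.208) and 0.06 without that library (adjusted p = 0.945), while leaving out Aged Sham 2 gave 1.57 (adjusted p = 0.0591).

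Tnfrsf11a was at 16.1, 15.8 and 13.998 CPM in Aged TBI, 12.04, 15.8 and 24.3 CPM in Aged Sham, 13.8, 12.4 and 13.7 CPM in Young TBI and 10.4, 12.3 and 10.9 CPM in Young Sham libraries. Aged Sham 3 was again the highest, and Aged Sham 1 lay below the highest Young Sham library. It was called for Aged Sham over Young Sham at a log2 fold change of 0.63 ± 0.20 (adjusted p = 0.0689). Without Aged Sham 3 the log2 fold change was 0.31 with an adjusted p of 0.185, and the call was also lost without Aged Sham 2 or any single Young Sham library, with adjusted p-values of 0.104 to 0.194, and in a fit of the 2 Sham groups only. For Aged TBI over Young TBI it was 0.21 ± 0.20 (adjusted p = 0.533).

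Osteoprotegerin was higher in aged mice with or without that library. Tnfrsf11b was at 26.8, 27.3 and 24.3 CPM in Aged TBI, 25.9, 31.3 and 34.3 CPM in Aged Sham, 19.6, 17.1 and 22.0 CPM in Young TBI and 18.0, 22.8 and 20.2 CPM in Young Sham libraries. All 6 aged libraries were above all 6 young ones. The log2 fold change was 0.58 ± 0.12 for Aged Sham over Young Sham (adjusted p = 0.0138, and 0.49 with an adjusted p of 0.0366 without Aged Sham 3). For Aged TBI over Young TBI it was 0.43 ± 0.13 (adjusted p = 0.0422), and this call was lost without Aged TBI 1 or 2 or Young TBI 1 or 2, with adjusted p-values of 0.11 to 0.162.

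**Figure D4:**
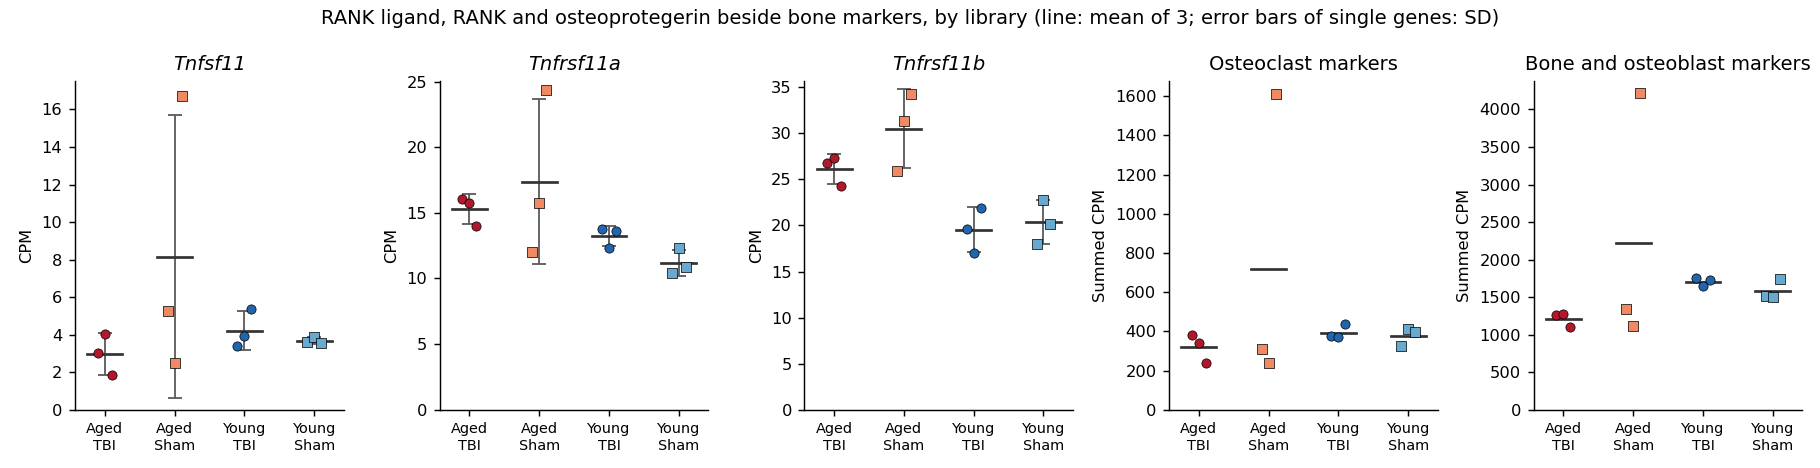
Tnfsf11 (RANK ligand), Tnfrsf11a (RANK) and Tnfrsf11b (osteoprotegerin) in CPM, and the summed CPM of 7 osteoclast and 9 bone and osteoblast markers, by library (vertical axes, from 0); lines are means of 3 and error bars, for the single genes, SDs. One Aged Sham library has 16.7 CPM of Tnfsf11, 24.3 CPM of Tnfrsf11a and 1609 CPM of osteoclast markers, while Tnfrsf11b is high in all 6 aged libraries; the bone sum of that library comes mainly from Spp1 (2556 CPM) and Ibsp (973 CPM), and 5 of its 9 genes are lowest there.

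The members not called in an age comparison had log2 fold changes between -0.20 and 1.13 among Sham mice (19 members) and between -0.59 and 0.63 among injured mice (22 members). Their 95% intervals, with those of the called members, lay within a 2-fold change in either direction for 15 of 27 members among Sham and 17 of 27 among injured mice. The costimulatory T cell receptors Tnfrsf4 (OX40) and Tnfrsf18 (GITR), neighbours on chromosome 4, are named after their values were seen. Tnfrsf4 averaged 4.41 ± 0.28 CPM in Aged TBI, 3.97 ± 0.92 in Aged Sham, 2.95 ± 0.57 in Young TBI and 2.61 ± 0.80 in Young Sham libraries (SD, n = 3 each), with adjusted p-values of 0.136 among TBI and 0.131 among Sham mice in edgeR; without Aged Sham 3 they were 0.0988 and 0.0712, and without Young Sham 1 the second was 0.0617. Tnfrsf18 averaged 5.42 ± 0.62 CPM in Aged TBI, 4.42 ± 0.75 in Aged Sham, 3.92 ± 0.56 in Young TBI and 4.06 ± 0.51 in Young Sham libraries; its adjusted p among TBI mice was 0.118, and 0.0836 without Aged Sham 3. Leaving out 1 library also gave calls for Tnfsf14 among Sham mice (0.0835 without Aged Sham 1) and for Tnfrsf12a among TBI mice (0.0901 without Aged Sham 3). The OX40 ligand Tnfsf4 was counted 4, 4 and 0 times in Aged TBI, 3, 3 and 2 times in Aged Sham, 0 times in each Young TBI and 0, 0 and 1 times in Young Sham libraries, too few reads for a fold change.

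The next question was whether the injury changed these genes 1.5 months later. In young mice 0 of the 27 members were called for Young TBI over Young Sham by edgeR and 0 by DESeq2. Over all genes edgeR called 0.00548% (1 of 18238) and DESeq2 called 8 genes. At an unadjusted p below 0.05 there were 2, Tnfrsf10b (given above) and Tnfrsf25 (log2 fold change -0.34 ± 0.14), against 4.15% of all genes. The log2 fold changes of the 27 lay between -0.52 and 0.65 with a median of 0.09 (0.00 over all genes), and 23 of the 27 intervals stayed within a 2-fold change.

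In aged mice 0 of 27 were called for Aged TBI over Aged Sham by edgeR and 0 by DESeq2. Over all genes edgeR called 1.65% (301 genes) and DESeq2 called 636 genes. At an unadjusted p below 0.05 there were 3, against 14.4% of all genes, and all 3 were lower after injury: Tnfsf11 (-1.44 ± 0.53), the TWEAK receptor Tnfrsf12a (-0.75 ± 0.31) and Tnfrsf14 (-0.30 ± 0.10). Tnfsf11 again rests on Aged Sham 3, without which its log2 fold change was -0.37 (adjusted p = 0.742). Tnfrsf12a was at 16.2, 13.2 and 8.83 CPM in Aged TBI and 15.95, 14.9 and 33.7 CPM in Aged Sham libraries, the highest again in Aged Sham 3, and without that library its log2 fold change was -0.27 (adjusted p = 0.726). Tnfrsf14 was at 11.3, 12.4 and 12.1 CPM in Aged TBI and 12.9, 14.96 and 16.2 CPM in Aged Sham libraries, which did not overlap; its adjusted p of 0.19 was the lowest of the 27, and without Aged Sham 3 its log2 fold change was -0.22 (adjusted p = 0.396). The 27 log2 fold changes lay between -1.44 and 0.43 with a median of -0.05 (0.01 over all genes), and 22 of the 27 intervals stayed within a 2-fold change.

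For the interaction of age with injury, edgeR called 0 of 27 members and DESeq2 0. Over all genes edgeR called 0% and DESeq2 called 4 genes. At an unadjusted p below 0.05 there was 1, Tnfrsf10b, against 7.6% of all genes: its log2 fold change for TBI over Sham was -0.05 ± 0.13 in aged mice and -0.52 ± 0.13 in young mice, a difference of 0.47 ± 0.19 (adjusted p = 0.644). The members' intervals of this difference stayed within 2-fold for 19 of 27. For the other 8 a difference beyond that size is not excluded.

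Genes of the TNF pathway outside the name rule were read from lists of ligands, receptors, adaptors and kinases, NF-kappaB factors, feedback inhibitors, ligand processing and response genes. Of their 73 tested genes, 0 were called by edgeR and 0 by DESeq2 for injury in either age or for the interaction, and the 3 (young), 9 (aged) and 5 (interaction) at an unadjusted p below 0.05 were 4.11%, 12.3% and 6.85% of them, against 4.15%, 14.4% and 7.6% of all genes. With no filter on low counts, Edar (0.83) and the protease gene Mmp9 (-1.67) were called for Aged TBI over Aged Sham. That fit called 706 genes in this comparison, against 301 with the filter. Mmp9 was at 142, 118 and 60.9 CPM in Aged TBI and 104, 88.1 and 842 CPM in Aged Sham libraries. The value of 842 CPM was that of Aged Sham 3, on which this fold change rests. For age 11 were called among Sham mice, or 15.1% against 15.6% of all genes, and 15 among injured mice, or 20.5% against 20.2%, so the shares called were near the background in both. Without Aged Sham 3, 8 of these 11 and all 15 were still called. Of 8 other receptors, Cd40 (log2 fold change 0.54) and Cd27 (0.83), costimulatory receptors of B and T cells, were higher and Ltbr (-0.24), the lymphotoxin beta receptor, was lower in Aged Sham than Young Sham. In Aged TBI over Young TBI, Cd27 (0.85), Edar (1.11) and Relt (0.44) were higher and Ltbr (-0.28) was lower. Ltbr thus ran against its ligand Ltb: it was at 60.3, 61.6 and 56.0 CPM in Aged TBI, 59.0, 63.9 and 70.9 CPM in Aged Sham, 79.8, 70.0 and 66.4 CPM in Young TBI and 77.0, 72.6 and 79.3 CPM in Young Sham libraries. Within each treatment the aged libraries were all below the young ones. Eda, ectodysplasin, the ligand of Edar and the only tested member of the 4 other ligands, was lower in both age comparisons (-0.79 among Sham and -0.67 among TBI mice). Of the 18 alternative settings, Eda held both its calls and Edar its single call in all 18, but Cd40 in 14, Relt in 7, Ltbr in 7 among Sham and 16 among TBI mice, and Cd27 in 4 among Sham and 10 among TBI mice. Cd27 was not called by DESeq2 in either comparison (adjusted p = 0.157 among Sham and 0.14 among TBI mice), nor by edgeR among Sham mice without Aged Sham 3 (0.119).

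Of 24 adaptors and kinases, Ikbkb (0.18) was higher and Traf4 (-0.52) and Traf5 (-0.46) were lower in Aged Sham than Young Sham, and Traf3 (-0.22), an inhibitor of the alternative NF-kappaB pathway, was lower in Aged TBI than Young TBI. Of the 5 NF-kappaB factors, 0 were called by edgeR or DESeq2 among Sham mice (0 at an unadjusted p below 0.05), and Nfkb1 (-0.19), Nfkb2 (-0.34) and Rela (-0.23) were lower in Aged TBI than Young TBI; with library totals alone as the scale, 0 of the 5 were called. The feedback inhibitor Tnip1 (-0.24; 1 of 9) and the protease Furin (-0.49; 1 of 5), which processes several TNF ligands, were lower in Aged TBI than Young TBI, and 0 genes of either list were called by edgeR or DESeq2 among Sham mice (3 feedback genes and 1 processing gene at an unadjusted p below 0.05). Traf5 and Furin held in all 18 alternatives, Traf4 in 17, Tnip1 in 15, Ikbkb, Nfkb1 and Nfkb2 in 14 each, Traf3 in 11 and Rela in 10; Traf3 and Tnip1 were also among those not called with library totals alone.

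Genes known to respond to TNF or to the lymphotoxin beta receptor included adhesion molecules and chemokines. Of 17 tested TNF response genes, Icam1 (0.43), Vcam1 (0.62) and the chemokine Ccl5 (0.83), which T cells also make, were higher in Aged Sham than Young Sham, and Vcam1 (0.38) and Ccl5 (1.05) were higher and Tnfaip6 (-1.10) lower in Aged TBI than Young TBI. Without Aged Sham 3, Vcam1 was still called among Sham mice (0.43, adjusted p = 0.0329) and Icam1 (0.31, adjusted p = 0.212) and Ccl5 (0.77, adjusted p = 0.101) were not; among TBI mice Ccl5 held in all 18 alternatives, Tnfaip6 in 15 and Vcam1 in 7. DESeq2 called 5 of the 17 among Sham mice. Of 4 tested lymphotoxin beta receptor response genes, Cxcl13, the chemokine that draws B cells into follicles, was higher in both. Cxcl13 was at 8.10, 9.52 and 9.81 CPM in Aged TBI, 6.41, 7.62 and 12.2 CPM in Aged Sham, 2.91, 2.39 and 4.72 CPM in Young TBI and 4.10, 2.51 and 4.71 CPM in Young Sham libraries. The aged and young libraries did not overlap, with log2 fold changes of 1.49 ± 0.31 for Aged TBI over Young TBI (adjusted p = 0.00963) and 1.22 ± 0.30 for Aged Sham over Young Sham (adjusted p = 0.0255, and 0.91 with an adjusted p of 0.0689 without Aged Sham 3).

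**Figure D5:**
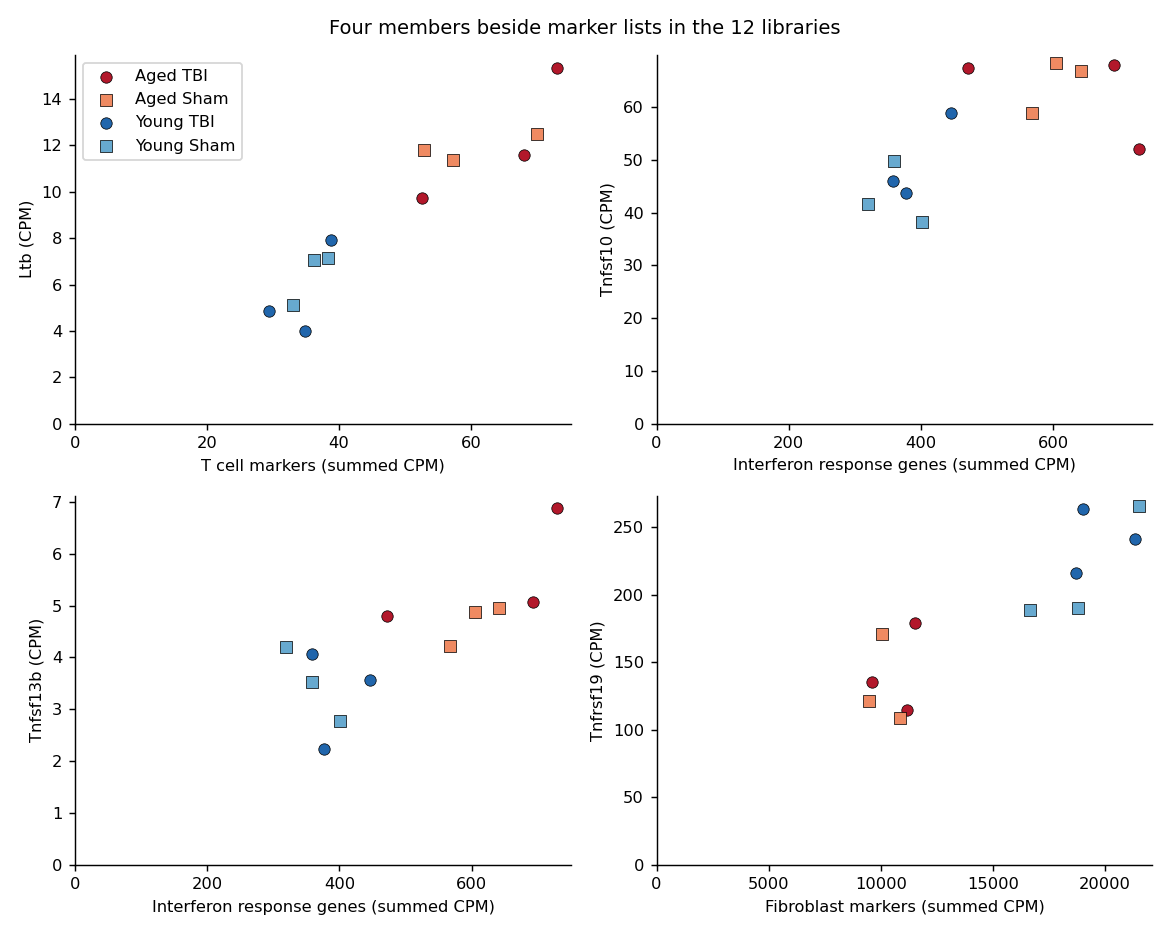
Level of Ltb, Tnfsf10, Tnfsf13b and Tnfrsf19 (CPM, vertical) beside the summed CPM of T cell markers, interferon response genes or fibroblast markers (horizontal) in each of the 12 libraries, by group. The fibroblast sum comes mainly from Col1a1, Col1a2 and Col3a1. Aged and young libraries do not overlap on either axis for Ltb, Tnfsf13b (4.22 against 4.20 CPM at the closest) and Tnfrsf19. No relation within a group was tested.

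The remaining members set aside had few reads in every group. Tnfsf9, the ligand of the T cell receptor 4-1BB (Tnfrsf9), had 21 reads in Aged TBI, 26 in Aged Sham, 22 in Young TBI and 25 in Young Sham libraries, summed over each group. Tnfsf18, the GITR ligand, had 10 in Aged TBI, 14 in Aged Sham, 10 in Young TBI and 10 in Young Sham libraries, with 11 of the 14 in Aged Sham 3. At this depth a count of 3 reads corresponded to 0.183 to 0.383 CPM per library, and neither ligand was called in any comparison by edgeR without the filter.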

How the data were processed

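Dorsal meninges of 12 libraries (4 groups of 3, by the sample titles) were sequenced as bulk RNA. Per the study's methods, the authors mapped reads to mm10 using HISAT2, dropped PCR duplicates and reads without information by means of SAMtools, and obtained gene counts from HTSeq; tool versions, the gene annotation and the strand setting are not given in the sources used here. The deposited values are raw read counts per gene, not normalized, in 1 table of 55385 rows, of which every sample column was used (0 left out). Among these rows 19413 had no count in any library. No 2 replicates of a group agreed within sampling noise (chi-square per degree of freedom of 3.40 or more), so none was merged. Total counts of 8092370 to 16087700 per library set the counting precision.

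Counts were analysed in R 4.3.3 with edgeR 4.0.16: filterByExpr kept 18238 genes, TMM factors were 0.969 to 1.04, and 1 quasi-likelihood fit with a mean for each of the 4 groups gave 5 contrasts (TBI over Sham in each age, Aged over Young in each treatment, and their interaction), with Benjamini-Hochberg adjustment over all 18238 genes and calls at an adjusted p below 0.1; adjusted p-values in the report are from this fit unless another tool is named. CPM used the TMM-scaled totals. The fit was checked on simulated counts. Exon lengths came from GENCODE M21 (GRCm38, the build of mm10). Alternatives were DESeq2 1.42.0, RLE factors, library totals alone, no filter, only the groups compared, leaving out each library, and the replicate number as a block.

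Every member was to be accounted for: members called in a contrast with each library's value, the others by range and counts, with group means for Tnf, its receptors and the partners of called members, and called genes of the pathway lists, at most 4 per list and contrast. The members, the gene lists and the marker lists were chosen with earlier results of these data known.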

Additional observations from a re-analysis of the deposited data

How the results depend on the processing

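The count of called members kept to its main value within 1.5 times in most alternatives. The exceptions were 1 for Aged TBI over Aged Sham with no filter on low counts (Tnfsf11, against 0), and, for Aged TBI over Young TBI, 9 with library totals alone and 8 with no filter, which added Lta, Tnfsf10 and Tnfrsf1a (against 5). Over all genes, Aged TBI over Aged Sham gave 706 calls with no filter (301 in the main fit). Aged TBI over Young TBI gave 4452 with library totals alone and 3286 with no filter (3683 in the main fit). Leaving out 1 library at a time gave 4 to 10 calls for Aged Sham over Young Sham (8 with all libraries) and 2 to 9 for Aged TBI over Young TBI. The lowest were without Young Sham 3 (1226 calls over all genes) and Young TBI 2 (2749). The highest were without Aged Sham 1 (3644) and Aged Sham 3 (4495). Both injury comparisons and the interaction stayed at 0 members. Over all genes these refits called 0 to 2 for young injury, 0 to 333 for aged injury and 0 for the interaction. Where almost no gene was called, a count of 0 members says little about them. With the replicate block the members called were 0, 0, 8, 5 and 0, as without it; over all genes it gave 56 calls for Aged TBI over Aged Sham in place of 301. Same-numbered libraries of 2 groups had correlations of -0.18 to 0.11 in their deviations and did not always correlate best with their own number, so the numbers were not taken as pairs. The calls of Tnfrsf10b, Tnfrsf11b, Tnfrsf25 and Tnfsf8 among Sham mice and of Ltb and Tnfrsf19 among injured mice held in all 18 alternatives. Of 232 counts of called genes in the pathway lists under alternatives, 18 moved by more than 1.5 times or between 0 and a call, and 9 of the 26 pathway calls for age held in every alternative. Of the single member results, 387 kept their side of the threshold, 19 lost a call and 26 gained one, and none reversed; where no value above shows the cause, the cause was not tested. With 3 pools a group, effects smaller than about the printed intervals, and members with few reads such as Lta and Tnfsf4, are beyond what the depth resolves.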
